A study of Mus musculus with 2 samples.

Results

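Cytochrome c oxidase is the last enzyme complex of the mitochondrial respiratory chain. It passes electrons from cytochrome c to oxygen and moves protons across the inner membrane. Its catalytic core is encoded by mitochondrial DNA, and the surrounding subunits are encoded in the nucleus. Several of these nuclear subunits exist as a ubiquitous isoform, which serves liver, and as an isoform restricted to other tissues: Cox6a2, Cox7a1 and Cox8b in heart and skeletal muscle, the last 2 also in brown fat, Cox6b2 in testis, and Cox4i2 in lung and under hypoxia. The 10 genes described here are the 5 such pairs, taken as a list out of 18193 genes named on the array. The members were chosen by their differences between these 2 arrays, in particular those of Cox6b2 and Cox6a2, so the values below describe the genes and test nothing.

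Livers came from C57BL/6J mice aged 2 months that had received adenovirus by tail vein, 1000000000 plaque-forming units per mouse, and were taken on day 3. The Ad-PDK4 group, given a vector that carries the gene of pyruvate dehydrogenase kinase 4, was a pool of 3 livers. The Ad-control group, given the empty vector, was a pool of 4 livers. Each pool was hybridized to 1 array (n = 1 per group), so the spread between mice was not measured and no p-value exists for any difference. The sources used here give neither the sex of the mice nor the promoter of the vector. Pdk4 itself had a signal of 177 in the Ad-PDK4 pool, against 234 in the Ad-control pool, a log2 difference of -0.39. The sources used here do not give the PDK4 sequence that the vector carries, so this mouse probe set may not read the vector's transcript and does not check the labels. All 11 hepatocyte markers measured, albumin among them, were above the floor in both pools and within 1.5-fold between them. All lay in the brightest of 5 equal classes of mean signal, where only 5.82% of genes were 1.5-fold apart in either direction. A transcript counted as measured when its signal reached the floor, the median of all probe sets of an array (99.9 in the Ad-PDK4 pool and 93.4 in the Ad-control pool). Differences are log2, Ad-PDK4 minus Ad-control, relative to the median probe set. Where 1 array was under its floor the difference is only a bound, and where both were there is none. A probe set is a group of short probes for the same transcript, and its signal has no absolute unit. Signals of different probe sets are therefore not ranked against each other; within a pair only the differences between pools are compared.

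Of the 10 genes, 9 were measured on at least 1 array and 7 on both. All 5 ubiquitous isoforms stayed within 1.5-fold. Of the 4 tissue-specific isoforms measured, 1 was at least 1.5-fold higher in the Ad-PDK4 pool (Cox6b2), 2 were at least 1.5-fold lower (Cox6a2 and Cox8b) and 1 was within 1.5-fold (Cox7a1). The background shares past 1.5-fold among the 12121 named genes measured were 11% higher and 5.58% lower, and nothing is read from the comparison, because the genes were chosen on this contrast. Their median log2 difference was -0.03, beside 0.02 over all genes measured. Dim genes differed more often than bright ones. In the brightest of 5 equal classes of mean signal, which holds the 5 ubiquitous isoforms, 5.82% of genes were 1.5-fold apart in either direction. In the classes of Cox8b, Cox6a2 and of Cox7a1 with Cox6b2, from dim to brighter, the shares were 24.9%, 27.9% and 15.8%.

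**Figure D1:**
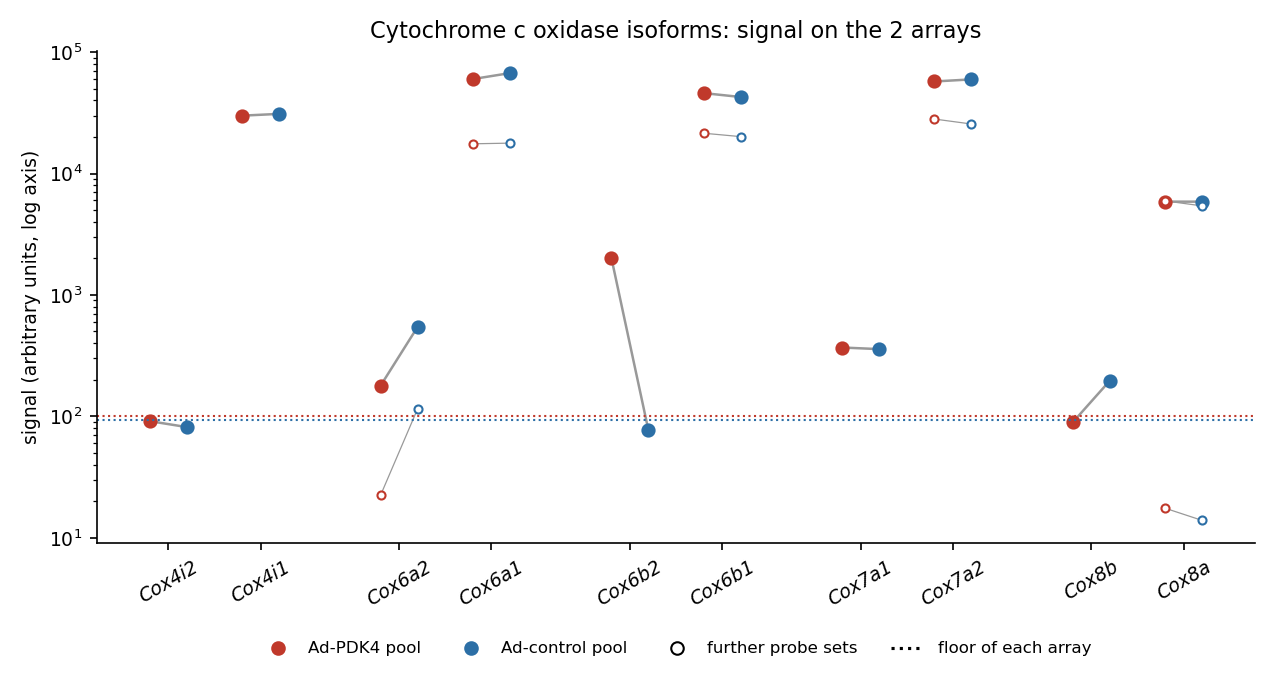
Signal of every probe set of the 10 genes (vertical log axis, arbitrary units), with the Ad-PDK4 pool (red) left of the Ad-control pool (blue) and dotted lines at the floor of each array. The steep lines are those of Cox6b2, 2023 against 77.8, of Cox6a2, 179 against 544, and of Cox8b, 89.6 against 197; those of the ubiquitous isoforms above the floor are close to level.

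The ubiquitous isoforms gave nearly the same signal on both arrays. Cox4i1, the subunit that carries an ATP-binding regulatory site of the enzyme, had a signal of 29966 in the Ad-PDK4 pool, against 30995 in the Ad-control pool. Cox6a1 had 60007 in the Ad-PDK4 pool and 67149 in the Ad-control pool. Cox6b1, which lies on the cytochrome c side of the complex, had 45965 in the Ad-PDK4 pool and 42693 in the Ad-control pool. These 3 genes differed by -0.03, -0.15 and 0.12 on the log2 scale. Cox7a2 had 57300.2 in the Ad-PDK4 pool and 59618 in the Ad-control pool, a log2 difference of -0.04. Cox8a had 5866 in the Ad-PDK4 pool and 5865 in the Ad-control pool, a log2 difference of 0.01. Counting every probe set measured on both arrays, 9 for these genes, the log2 differences ran from -0.15 to 0.15, which is within the 0.35 (SD) by which probe sets of the same gene disagreed over 4326 genes. Another probe set of Cox8a was under the floor on both arrays (17.5 in the Ad-PDK4 pool and 13.9 in the Ad-control pool). The signs of such small values depend on the zero point: relative to the poly-A spike-ins, RNAs added in unstated amounts, all log2 differences move up by 0.54, Cox4i1, Cox6a1 and Cox7a2 turn positive, Cox6b1 (0.66) and Cox7a1 (0.60) pass 1.5-fold, and the bound of Cox8b (-0.42) no longer does. Differences between isoforms of a pair do not depend on that choice.

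Cox6b2 was the member that stood highest in the Ad-PDK4 pool. It encodes the testis form of the subunit that Cox6b1 provides elsewhere. Its only probe set had a signal of 2023 in the Ad-PDK4 pool, against 77.8 in the Ad-control pool. The first value lay far above the floor and the second below it, so the transcript was at least 21.9-fold higher, a log2 difference of at least 4.45. Among the 947 genes under the floor on the Ad-control array only, this bound was number 2 from the top. Against Cox6b1, the log2 difference of Cox6b2 was greater by at least 4.33, that is at least 20.1-fold. A floor at the 70th percentile of the probe sets lowered the bound of Cox6b2 to 2.86. With no other probe set for the gene, its value has no internal check.

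Other testis transcripts were mostly not measured. Of 20 germ cell markers, 15 were under the floor on both arrays, among them the protamine gene Prm2, both transition protein genes (Tnp1, Tnp2) and the testis enzymes Ldhc, Pgk2 and Pdha2. Of the 5 measured, Smcp, a sperm mitochondrial capsule protein, was at least 1.67-fold higher in the Ad-PDK4 pool (155 against 4.7 in the Ad-control pool). Prm1 was lower, with 303 in the Ad-PDK4 pool against 655 in the Ad-control pool. Only 1 of its 3 probe sets was measured, and without probe sets named _x_at, _s_at or _a_at 0 testis markers were lower. Sycp3 (0.37), Gapdhs (0.41) and Acr (0.04) were within 1.5-fold. Of these 5, 1 was thus past 1.5-fold on the higher side and 1 on the lower, beside the 11% and 5.58% among all genes. Smcp reached the floor in the Ad-PDK4 pool only, so it could only fall on the higher side. Their median log2 difference was 0.37 with the bound of Smcp counted, and 0.20 over the 4 measured on both arrays. The summed signal of the 20 markers was 1239 in the Ad-PDK4 pool and 1517 in the Ad-control pool, but Prm1 sets that order: without it the sum was 936 in the Ad-PDK4 pool and 862 in the Ad-control pool. The part of germ cell RNA in the Cox6b2 signal was not tested. Testis forms of other mitochondrial and glycolytic proteins were also set beside Cox6b2. In 8 such pairs, 6 testis forms were under the floor on both arrays, including testis cytochrome c (Cyct), the ADP/ATP carrier Slc25a31 and the oxidase subunit Cox7b2. Cox8c, the testis form of the subunit that Cox8a and Cox8b encode, was measured. Its signal was 893 in the Ad-PDK4 pool and 631 in the Ad-control pool, a log2 difference of 0.52, and 0.50 above that of Cox8a.

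Sets of genes that were high in the same pool as Cox6b2 are given beside it. All 14 cell proliferation markers measured were at least 1.5-fold higher in the Ad-PDK4 pool, beside 11% among all genes. Of these, 5 were under the floor in the Ad-control pool, so they have only bounds and could only fall on the higher side. The median log2 difference was 3.19 with bounds counted, and 3.27 over the 9 measured on both arrays. The summed signal was 26894 in the Ad-PDK4 pool, against 2152 in the Ad-control pool. All 10 exocrine pancreas markers measured were higher too, again beside 11% among all genes, and all 10 were measured on both arrays. Their median log2 difference was 3.11, and their summed signal was 84419 in the Ad-PDK4 pool, against 10618 in the Ad-control pool. The part of either in the Cox6b2 signal was not tested. Of the genes next to Cox6b2 on chromosome 7, Kmt5c was the only one of 4 with a difference. This histone methyltransferase gene on one side had 355 in the Ad-PDK4 pool and 420 in the Ad-control pool, a log2 difference of -0.23. Tmem150b and Il11 were under the floor on both arrays, and the immediate neighbour on the other side, Fam71e2, was not analysed here.

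**Figure D2:**
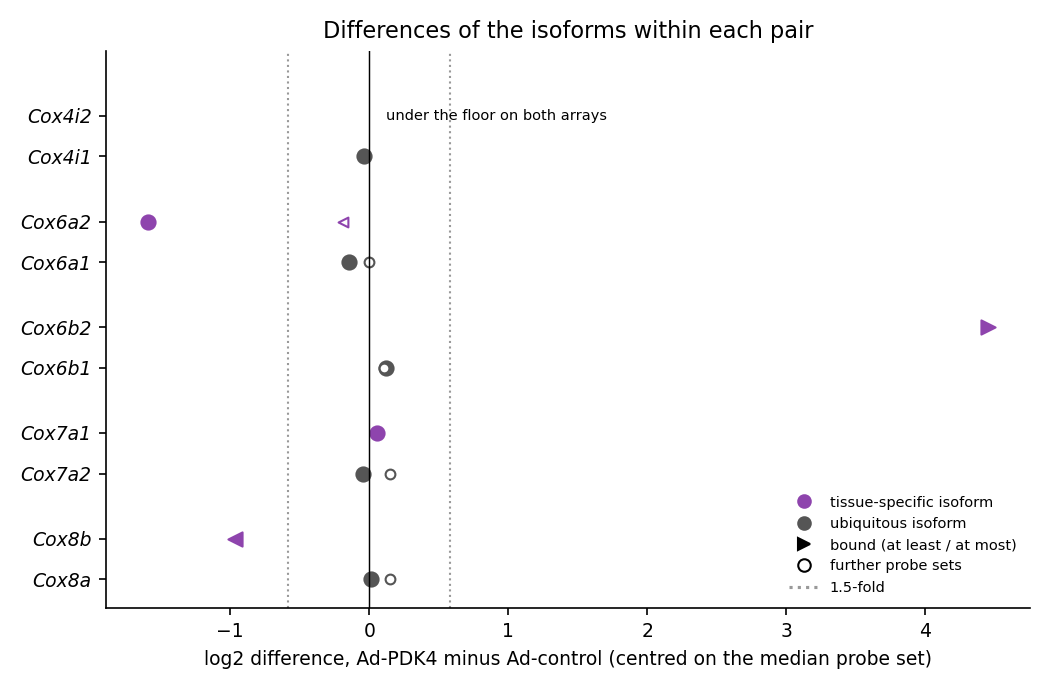
Log2 difference (Ad-PDK4 minus Ad-control, horizontal axis) of every measured probe set, with the tissue-specific isoform of each pair (purple) above the ubiquitous one (grey); triangles are bounds, open symbols further probe sets, and dotted lines mark 1.5-fold. The grey points lie between -0.15 and 0.15, while Cox6b2 stands at 4.45 or more, Cox6a2 at -1.59 and Cox8b at -0.96 or less.

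Cox6a2 was the lowest of the members measured on both arrays. It is the heart and skeletal muscle form of the subunit that Cox6a1 provides in liver. Its brightest probe set had a signal of 179 in the Ad-PDK4 pool, against 544 in the Ad-control pool, which is 3.01-fold lower (log2 difference -1.59). It held place 8 from the bottom among 10389 genes measured on both arrays. Its second probe set had 22.4 in the Ad-PDK4 pool and 115 in the Ad-control pool, so it reached the floor in the Ad-control pool only and gave a bound of -0.19. Both probe sets were thus dimmer in the Ad-PDK4 pool. Taken against Cox6a1, the log2 difference of Cox6a2 was lower, a contrast of -1.44, that is 2.72-fold. Because the second probe set counts only as its bound, the median over both probe sets was -0.89. A floor at the 70th percentile left Cox6a2 with only a bound, -0.88. The gene's span in the annotation overlaps that of Itgad, an integrin gene that was not analysed here.

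Cox8b, the muscle and brown fat form of a small transmembrane subunit, likewise had less signal in the Ad-PDK4 pool. Its only probe set had 89.6 in the Ad-PDK4 pool, under the floor, and 197 in the Ad-control pool. It was at least 1.95-fold lower, a log2 difference of -0.96 or less. Cox8a differed by 0.01, so the contrast within the pair was -0.98 or less. With the floor at the 70th percentile neither array measured Cox8b. The signal was low on both arrays, and no second probe set checks it.

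Cox7a1 did not go with the other muscle forms. This isoform of another small subunit is known from heart, skeletal muscle and brown fat. Its probe set had 369 in the Ad-PDK4 pool and 358 in the Ad-control pool, both above the floor, and a log2 difference of 0.06. The contrast with Cox7a2 was 0.10, within the disagreement between probe sets of a gene. Of the 4 pairs with a contrast, it was the only one less than 1.5-fold apart. Cox4i2, the form induced by low oxygen in lung and in cultured cells, was under the floor on both arrays (91.3 in the Ad-PDK4 pool and 81.6 in the Ad-control pool), and no contrast with Cox4i1 is given. The hypoxia-induced counterpart of another oxidase subunit, Ndufa4l2, was under the floor on both arrays as well (75.4 in the Ad-PDK4 pool and 38.8 in the Ad-control pool).

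Muscle transcripts as a list were lower in the pool in which Cox6a2 and Cox8b were lower. Of 20 skeletal and cardiac muscle markers, 16 were measured. Of these 16, 11 were at least 1.5-fold lower in the Ad-PDK4 pool and 0 were higher, beside 5.58% lower among all genes. Most of the 16 lay in the dimmer classes of mean signal, where 24.9%, 27.9% and 15.8% of genes were 1.5-fold apart in either direction. The median log2 difference of the 16 was -0.82, bounds counted. The summed signal of the 20 was 4513 in the Ad-PDK4 pool, against 8267 in the Ad-control pool. Tnnt3, a troponin of fast skeletal muscle, had 128 in the Ad-PDK4 pool and 349.6 in the Ad-control pool, a log2 difference of -1.44. Myh1, a fast myosin heavy chain, had 265 in the Ad-PDK4 pool and 628 in the Ad-control pool, a log2 difference of -1.23. Casq1, Myh7 and Tnnt2 reached the floor in the Ad-control pool only, so they could only fall on the lower side. Casq1 and Myh7 were at least 2.21-fold and 1.72-fold lower, and the bound of Tnnt2, a cardiac troponin (63.6 in the Ad-PDK4 pool and 126 in the Ad-control pool), was below 1.5-fold, at -0.32 or less on the log2 scale. At the other end, Myh4 (-0.22) and the calcium pump gene Atp2a1 (-0.01) were within 1.5-fold. Of the other cardiac markers, Actc1 was measured on both arrays and differed by -0.45 (108 in the Ad-PDK4 pool and 148 in the Ad-control pool), while Myh6, Tnni3 and Nppa were under the floor on both. The difference of Cox6a2 lay below that of all 13 muscle markers measured on both arrays, the bound of Cox8b lay above 5 of them, and Cox7a1 lay above all 13. Nothing is read from the place of Cox6a2, because it was chosen for its difference on these arrays. In a bulk sample, fewer cells of a type and less RNA per cell cannot be told apart, and the part of muscle RNA in the signals of Cox6a2 and Cox8b was not tested. Relative to the poly-A spike-ins, 5 of the 16 markers were 1.5-fold lower, with a median of -0.28.

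**Figure D3:**
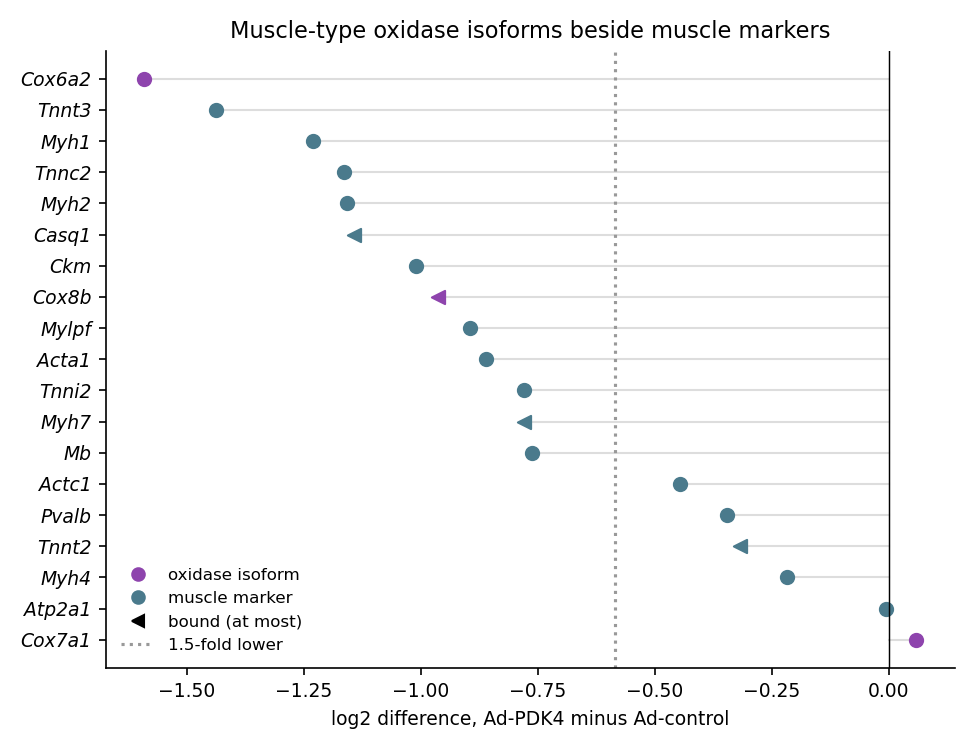
Log2 difference (Ad-PDK4 minus Ad-control) of the 3 muscle-type oxidase isoforms (purple) and of the 16 measured muscle markers (blue-green), ordered from the lowest at the top; triangles are bounds and the dotted line marks 1.5-fold lower. Cox6a2 (-1.59) stands below every marker measured on both arrays, and Cox7a1 (0.06) above them all. The bound of Cox8b (-0.96 or less) lies among them, but its difference may be lower.

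Further pairs of muscle and non-muscle isoforms gave mixed values. Of 8 pairs of metabolic enzymes and carriers, 4 had a contrast. Phka1, the muscle form of a phosphorylase kinase subunit, differed by -0.71 (162 in the Ad-PDK4 pool and 268 in the Ad-control pool), and its contrast with the liver form Phka2 was -0.96. The muscle form Fbp2 of fructose bisphosphatase went the other way, at least 1.64-fold higher, with a contrast to Fbp1 of at least 0.76. The contrast was -0.07 for the ADP/ATP carriers Slc25a4 and Slc25a5 and 0.19 for the glycogen phosphorylases Pygm and Pygl. Brown fat is the other known site of Cox7a1 and Cox8b. Among 5 brown fat markers measured, no value or bound was past 1.5-fold on the brightest probe set. For Ppargc1a this depended on the probe set: the brightest was at -0.58, and those measured ran from -0.97 to -0.27. The 4 measured on both arrays had a median of -0.13. Cidea had 5.6 in the Ad-PDK4 pool, under the floor, and 110 in the Ad-control pool. Its bound is -0.12 or less, so it may have differed by more than 1.5-fold. Ucp1, which defines that tissue, was under the floor on both arrays. The 7 smooth muscle and pericyte markers measured had a median of 0.16, and 1 of them (14.3%) was past 1.5-fold, on the higher side. Among all genes 11% were past 1.5-fold on the higher side and 5.58% on the lower.

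The promoter windows of the tissue-specific isoforms were read to show what precedes the genes that differed. They cover the 250 bases before the annotated start, from RefSeq (build GRCm38.p6), for the isoform that was higher (Cox6b2), a lower one for which a window was found (Cox8b) and the muscle form close to 0 (Cox7a1). Windows were found for 7 of the 10 genes. Cox6a2, Cox4i1 and Cox4i2 were not among them. Capitals mark E-boxes (CANNTG, bound by myogenic and other basic helix-loop-helix factors) and CCAAT boxes (CCAAT or its complement ATTGG, bound by NF-Y), searched on both strands; no capital run joins the 2 motifs. The windows are Cox6b2 at chr7:4753095-4753344 (minus strand), Cox8b at chr7:140900447-140900696 (minus strand) and Cox7a1 at chr7:30183921-30184170 (plus strand).
Cox6b2: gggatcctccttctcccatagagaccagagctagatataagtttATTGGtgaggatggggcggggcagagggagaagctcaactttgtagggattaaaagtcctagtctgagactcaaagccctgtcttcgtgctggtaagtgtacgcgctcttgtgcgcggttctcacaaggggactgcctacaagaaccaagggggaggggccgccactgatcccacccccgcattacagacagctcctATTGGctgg
Cox8b: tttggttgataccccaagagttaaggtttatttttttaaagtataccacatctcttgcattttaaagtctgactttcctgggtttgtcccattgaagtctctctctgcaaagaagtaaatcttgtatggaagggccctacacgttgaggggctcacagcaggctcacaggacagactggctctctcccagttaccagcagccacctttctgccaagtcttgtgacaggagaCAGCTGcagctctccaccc
Cox7a1: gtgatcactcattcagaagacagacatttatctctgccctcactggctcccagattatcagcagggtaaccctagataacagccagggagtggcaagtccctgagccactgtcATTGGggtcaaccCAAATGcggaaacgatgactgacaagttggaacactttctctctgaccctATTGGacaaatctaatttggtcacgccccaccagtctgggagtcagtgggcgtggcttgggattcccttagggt
The Cox6b2 window held 2 CCAAT boxes and 0 E-boxes, the Cox8b window 0 CCAAT boxes and 1 E-box, and the Cox7a1 window 2 CCAAT boxes and 1 E-box. Over 32851 RefSeq windows of this length, 33.8% held a CCAAT box and 66.2% an E-box. None of the 7 windows held TTTGAA, an element of many cell cycle promoters, on either strand, and 16.0% of all windows did. The windows of Cox6b2, Cox8b and Cox7a1 were 54.8%, 47.2% and 51.2% G and C, beside a median of 52.4% over all windows, with 8, 1 and 4 CpG dinucleotides beside a median of 6. A match is a description of letters and not evidence of binding.

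**Figure D4:**
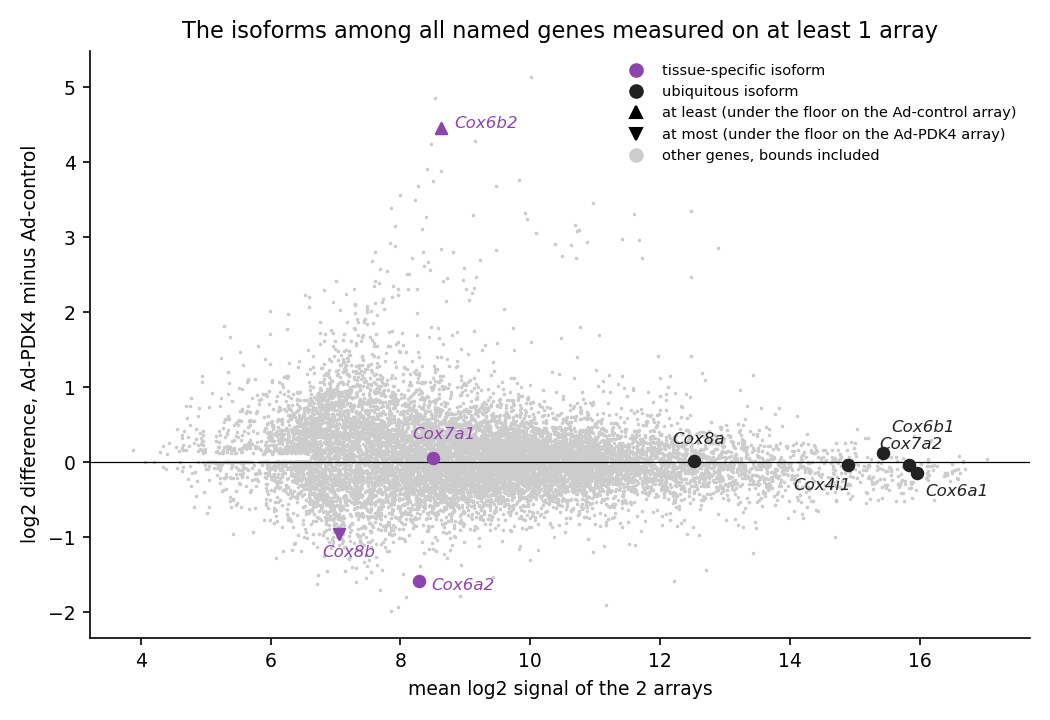
Log2 difference (Ad-PDK4 minus Ad-control) against the mean log2 signal of both arrays for the 12121 named genes measured on at least 1 array (grey), with the tissue-specific isoforms in purple and the ubiquitous ones in black. The ubiquitous isoforms lie at the bright end within 0.15 of 0, and Cox6b2, Cox6a2 and Cox8b lie at the upper and lower edges of the cloud of dimmer genes.

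The remaining subunits of the complex that were measured gave no member past 1.5-fold. Of 12 listed, 7 were measured. The core subunits encoded by mitochondrial DNA (mt-Co1, mt-Co2 and mt-Co3) and Cox7b had no named probe set, so nothing is known of them here. Cox7b2 was under the floor on both arrays. Of the 7 measured, 0 were higher and 0 lower, beside 11% and 5.58% among all genes, with a median log2 difference of -0.03. Cox5a, which binds the matrix side, had 34850.2 in the Ad-PDK4 pool and 45175 in the Ad-control pool, and all 3 of its probe sets were below 0 (from -0.36 to -0.21). Cox6c differed by -0.21 and Ndufa4 by -0.23. Cox5b, the zinc-binding subunit, was at 0.26, with 32166 in the Ad-PDK4 pool and 27213 in the Ad-control pool. Cox7a2l, the relative of Cox7a1 and Cox7a2 that joins the oxidase to complex III, differed by -0.03, with 4396 in the Ad-PDK4 pool and 4524 in the Ad-control pool. Cox7c (-0.01) was read only by a dim probe set, 166 in the Ad-PDK4 pool and 169 in the Ad-control pool.

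Factors that build the oxidase had a median of -0.04 over 24 measured. Past 1.5-fold were 1 on the higher side (4.17%) and 2 on the lower (8.33%). Among all genes these shares were 11% and 5.58%, so nothing is read from the counts. Sco1, a copper chaperone of the binuclear copper site, was 2.16-fold lower on its only probe set (118 in the Ad-PDK4 pool, just above the floor, and 257 in the Ad-control pool). Sco2, its paralog, differed by -0.05. The insertase gene Oxa1l was at -0.90 on its brightest probe set, but its probe sets ran from -0.90 to 1.09, so its direction is not settled. Cox18, which inserts a core subunit into the membrane, was 1.55-fold higher (992 in the Ad-PDK4 pool and 645 in the Ad-control pool). Cox15, of heme A synthesis, was at 0.52 on its brightest probe set, the top of a range from 0.004 to 0.52. The 19 regulators measured had a median of 0.01. Past 1.5-fold were 2 on the higher side (10.5%) and 1 on the lower (5.26%), close to the shares among all genes. Tfb1m, a mitochondrial rRNA methyltransferase, was at 0.84, with its 2 probe sets from 0.46 to 0.84. Nrf1, an activator of nuclear oxidase genes, was at 0.67, with its 4 probe sets from 0.03 to 0.89. The lower end of both ranges was within 1.5-fold. The coactivator genes Ppargc1b (-0.59) and Ppargc1a (-0.58) were the lowest. The measured probe sets of Ppargc1a ran from -0.97 to -0.27, so its side of the 1.5-fold line depended on the probe set. Of the regulators tied to Cox4i2 by work in human cells, Cxxc5 differed by -0.51 and Rbpj by -0.34, and the probe sets of Rbpj lay on both sides of 0.

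**Figure D5:**
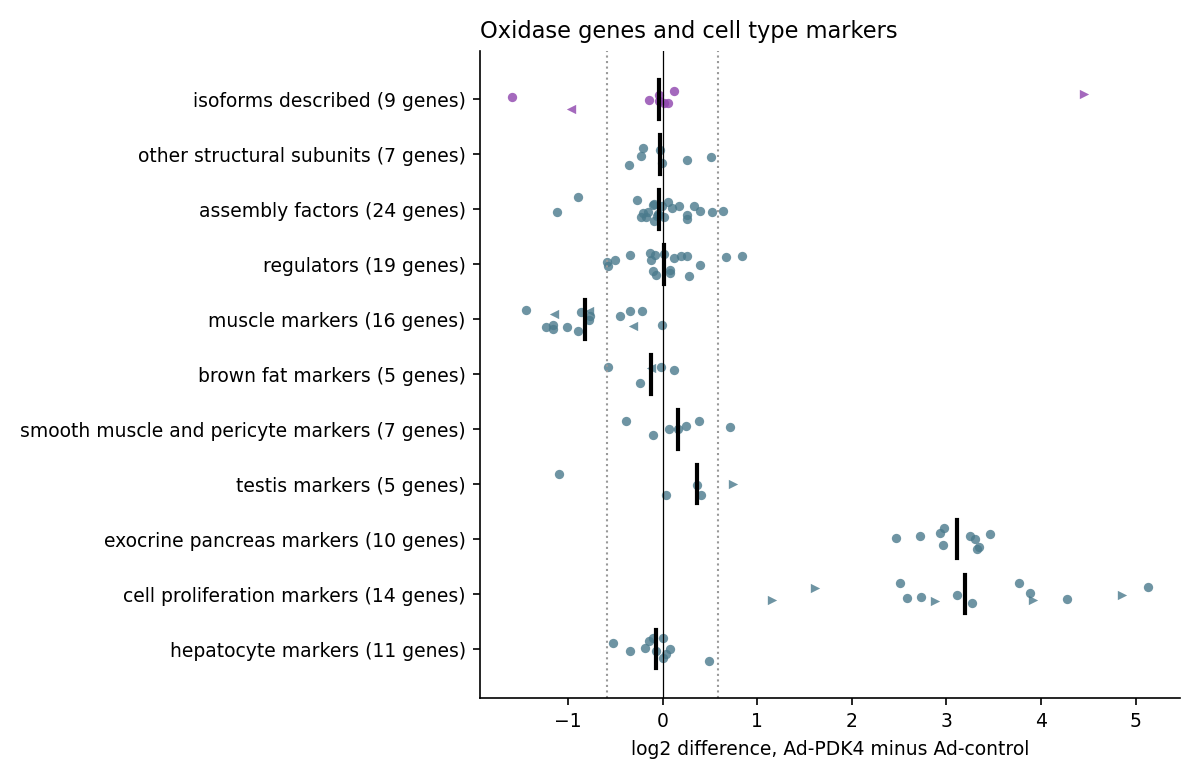
Log2 difference (Ad-PDK4 minus Ad-control) of each measured gene of the 10 isoforms, the other oxidase genes and the cell type marker lists, with black bars at list medians, triangles for bounds, the number of genes measured in brackets and dotted lines at 1.5-fold. Structural subunits, assembly factors and regulators centre near 0, muscle markers at -0.82, and pancreas and proliferation markers at 3.11 and 3.19. List medians count bounds.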

How the data were processed

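Total RNA of liver was pooled within each group, and 10 ug of each pool was labelled with biotin for hybridization to Affymetrix arrays, per the labels' protocols. The authors deposited 1 linear signal intensity per probe set, 45101 on each array; no source used here names the summary method, software or genome build. With 2% of the values trimmed at either end, both arrays have a mean of 500.0, so each had been scaled to a common value. The number of arrays limits the precision.

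The platform annotation gave 34958 probe sets a single symbol and 932 several, which were left unnamed; all 10 symbols matched RefSeq through the Entrez identifier. Signals were put on the log2 scale, with a floor at the 50th percentile of each array. Differences (Ad-PDK4 minus Ad-control) were set relative to the median of the 20151 probe sets above both floors, a shift of -0.01. The brightest probe set stood for a gene. Genes of 11 lists and of further isoform pairs were counted at 1.5-fold. The genes named are all 10 isoforms, all measured subunits, the extremes of the lists, members at a bound of at least 1.5-fold, and pairs at least 1.5-fold apart; Tnnt2, Actc1, genomic neighbours, promoters, paralogs and single markers were added after values were seen. Extremes of the pancreas, proliferation, hepatocyte, smooth muscle and brown fat lists are given as counts only. The isoforms and lists were chosen with earlier results of these data known. Calculations were tested on simulated data. Python 3.11.15 with pandas 2.3.3 and statsmodels 0.14.6 was used.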

Additional observations from a re-analysis of the deposited data

How the results depend on the processing

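The 8 alternatives gave 187 values for 24 results; 156 differed little, 31 moved by more than the probe set SD or by over 1.5 times in a count, and 0 called values changed sign. Centring on the poly-A spike-ins moved single differences but no contrast within a pair: Cox4i1 was then at 0.51, Cox6a1 at 0.39, Cox6a2 at -1.05, Cox6b1 at 0.66, Cox6b2 at 4.99 or more, Cox7a1 at 0.60, Cox7a2 at 0.50, Cox8a at 0.56 and Cox8b at -0.42 or less. Of the isoforms 3 were then higher and 1 lower, of the other subunits 2 were higher (median 0.52), of the muscle markers 5 were lower (median -0.28), and of the testis markers 3 were higher and 0 lower (median 0.91). The cause is the construction of that setting, which adds the same amount to every difference. With the floor at the 70th percentile Cox6a2 was at -0.88 or less and its contrast at -0.75 or less, Cox6b2 at 2.86 or more and its contrast at 2.72 or more; Cox8b had no value, 1 isoform was lower, 7 of 10 muscle markers were lower, and 0 testis markers were higher, with 1 measured (-1.08). With it at the 30th percentile Cox4i2, which has no value otherwise, came to 0.16 and its contrast to 0.21, and 3 of 13 testis markers were higher and 3 lower. With the median over probe sets Cox6a2 was at -0.89 and its contrast at -0.81, since a bound entered the median. Without probe sets named _x_at, _s_at or _a_at 0 testis markers were lower, Cox4i1 and Cox6a1 had no probe set, and Cox6a2 therefore had no contrast. No paired analysis was possible because each group is 1 array and no test was made. Signals near the floor limit what can be said of Cox8b, Cox4i2 and the control value of Cox6b2.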
